A study of Mus musculus with 8 samples.

Results

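The Slc25a genes encode the mitochondrial solute carrier family, and their transcripts were followed in liver RNA of mice given a herbal decoction. The members are the genes whose symbol is Slc25a followed by digits, with the exception of Slc25a20, a rule that uses no measured value. They are 45 of the 24547 genes in the table. Of these, 39 passed the filter on low counts and were tested. The other 6 (Slc25a2, Slc25a18, Slc25a31, Slc25a35, Slc25a41 and Slc25a43) had at most 13 counts in any library.

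Most proteins of this family sit in the inner mitochondrial membrane and exchange metabolites between the cytosol and the matrix. In hepatocytes they carry the traffic behind oxidative phosphorylation, the malate-aspartate shuttle, the urea cycle, gluconeogenesis, fatty acid synthesis and the supply of iron and cofactors to the matrix. A few members lie elsewhere, such as Slc25a17 in peroxisomes and Slc25a46 in the outer mitochondrial membrane.

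The treated group held 4 liver libraries of ICR mice, an outbred strain, that received a decoction of Psoraleae Fructus at high dose into the stomach for 30 days. The control group held 4 liver libraries of ICR mice, and the protocol names saline as the other agent given. The series concerns liver damage by this herbal preparation, and the comparison asks which liver transcripts differ after treatment. Age, sex, the weight of herb given and the time of day at death are not stated in the labels, which also do not tie libraries to animals. P-values therefore measure the spread between these libraries, and a liver counted below stands for a library.

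Transcription starts of 4 carriers are shown as RefSeq promoter windows (build GRCm38.p6, 250 bases before to 50 after a start). Slc25a30 and Slc25a28 are the carriers that passed the test, Slc25a25 is a carrier whose controls ran from 4.43 to 56.6 FPKM, and Slc25a47 is the carrier that led the family in 3 control livers. Capitals mark matches, read on either strand, to the CCAAT box (CCAAT), the GC box (GGGCGG) and the cyclic AMP response element (TGACGTCA). The windows lie at chr14:75786988-75787287 for Slc25a30, chr19:43674832-43675131 for Slc25a28 and chr2:32424017-32424316 for Slc25a25, all on the minus strand, and at chr12:108850879-108851178 on the plus strand for Slc25a47. RefSeq lists 3 starts for Slc25a25, and the most downstream is shown because it holds the cyclic AMP response element.
Slc25a30: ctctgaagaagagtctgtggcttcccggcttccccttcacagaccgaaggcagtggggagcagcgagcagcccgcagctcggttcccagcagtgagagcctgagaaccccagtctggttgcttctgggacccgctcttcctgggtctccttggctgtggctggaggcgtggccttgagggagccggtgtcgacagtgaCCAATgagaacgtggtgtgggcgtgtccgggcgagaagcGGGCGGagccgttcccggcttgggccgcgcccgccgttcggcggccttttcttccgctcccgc
Slc25a28: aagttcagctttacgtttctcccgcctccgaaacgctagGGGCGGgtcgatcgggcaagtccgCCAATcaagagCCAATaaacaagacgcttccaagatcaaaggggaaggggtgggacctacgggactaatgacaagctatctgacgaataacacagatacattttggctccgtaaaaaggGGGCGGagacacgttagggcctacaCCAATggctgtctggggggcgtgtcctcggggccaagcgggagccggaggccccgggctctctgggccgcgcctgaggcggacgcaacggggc
Slc25a25: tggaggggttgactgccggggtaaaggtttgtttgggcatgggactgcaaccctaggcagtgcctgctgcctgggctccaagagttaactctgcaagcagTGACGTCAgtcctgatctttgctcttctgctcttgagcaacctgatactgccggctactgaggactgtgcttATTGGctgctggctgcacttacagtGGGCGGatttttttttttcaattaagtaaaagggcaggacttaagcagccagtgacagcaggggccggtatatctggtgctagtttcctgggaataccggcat
Slc25a47: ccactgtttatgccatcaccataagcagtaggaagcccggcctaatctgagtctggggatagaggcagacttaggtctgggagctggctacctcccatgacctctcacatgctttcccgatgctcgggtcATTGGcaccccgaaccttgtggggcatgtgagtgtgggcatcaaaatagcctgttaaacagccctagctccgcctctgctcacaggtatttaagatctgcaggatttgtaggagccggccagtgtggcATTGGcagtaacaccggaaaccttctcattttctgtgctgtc

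The windows of Slc25a30 and Slc25a28 held 25 and 24 CpG dinucleotides, against 7 in that of Slc25a47. For Slc25a25 the window shown held 6, and those of its other starts held 25 (the most upstream) and 7. Symbols of 34 carriers matched a RefSeq entry, with 44 windows in all. The GC box was found in 84.1% of the carriers' windows, 59.9% of the 12643 windows of tested genes and 35.7% of all 32851 windows. The CCAAT box was found in 22 of the 44 carriers' windows, in 37.4% of those of tested genes and in 37.4% of all windows. The response element seen in the Slc25a25 window was found in 4.55% of the carriers' windows, 2.89% of those of tested genes and 1.79% of all. The E-box CACGTG was found in 18.2%, 9.82% and 7.15%, and the TATA box TATAAA in 4.55%, 7.93% and 13.6%. None of the motifs contains another, and a match describes the letters of the window only.

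Library totals ran from 16398729 to 20159132 counts in treated libraries and from 15864399 to 19153845 counts in controls. Levels below are FPKM, which scale a count by gene length and library total, divided by each library's TMM scaling factor. The hepatocyte markers Alb, Ttr, Apoa1, Cps1 and Tat were abundant throughout, with summed levels of 56202.8 to 63769.2 FPKM in treated and 47212.7 to 68246.4 FPKM in control libraries. Alb made up most of these sums. Tat stood at 2380.6 FPKM in control 1 and at 213 to 811.7 FPKM in the other libraries. For 22 of the 39 tested carriers control 4 was the highest or lowest control, on the treated side of the other controls' mean. Each of the other controls did so for 4 to 11 carriers, and more than 1 control can do so for a gene. Among all tested genes control 4 did so in 45.3%, and the others in 19.7% to 33.5%. Dbp, an output gene of the circadian clock, stood at 12.7 to 26.5 FPKM in treated libraries and at 11.9 FPKM in control 4, and at 0.0518 to 0.682 FPKM in the other controls. Of the 5 clock genes listed (Arntl, Npas2, Dbp, Per2 and Nr1d1), 1 was called higher and 2 lower in treated livers. Control 4 lay within the treated range for Nr1d1 (26.8 FPKM). For the rest it lay between the treated and the other control libraries (Arntl 1.43, Npas2 0.285 and Per2 2.42 FPKM). The hour of collection is unknown, and the part of clock phase in the results was not tested. Carriers called without control 4 are given both ways.

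The adenine nucleotide translocase Slc25a5, which exchanges cytosolic ADP for matrix ATP, was the most abundant carrier by mean level. It stood at 232.2, 208.6, 224.8 and 234.9 FPKM in treated libraries 1 to 4, and at 195.7, 182.5, 163.1 and 203.7 FPKM in controls 1 to 4. Slc25a47, a carrier found mainly in liver, had 170.1, 150.1, 195.6 and 172.2 FPKM in treated libraries, and 256.9, 186.4, 333.4 and 139.4 FPKM in controls. Slc25a5 was thus the leading carrier in all 4 treated libraries and in control 4, and Slc25a47 in controls 1 to 3. Slc25a39, which carries glutathione, came next and lay below Slc25a47 in every library. Within groups, the ranges of these carriers overlapped among treated libraries only (128 to 166.6 FPKM for Slc25a39, 150.1 to 195.6 FPKM for Slc25a47). Slc25a15, Slc25a13, Slc25a1, Slc25a3, Slc25a22, Slc25a23, Slc25a10, Slc25a11 and Slc25a44 followed in the order of mean level, from 72.8 to 25.1 FPKM, and neighbours in this order overlapped between libraries. The summed level of the 45 carriers was 1129.2 ± 83.91 FPKM in treated and 1127.4 ± 128.5 FPKM in control livers (SD, n = 4 each). The 5 leading carriers of each library made up 57.5% to 64.8% of that sum.

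**Figure D1:**
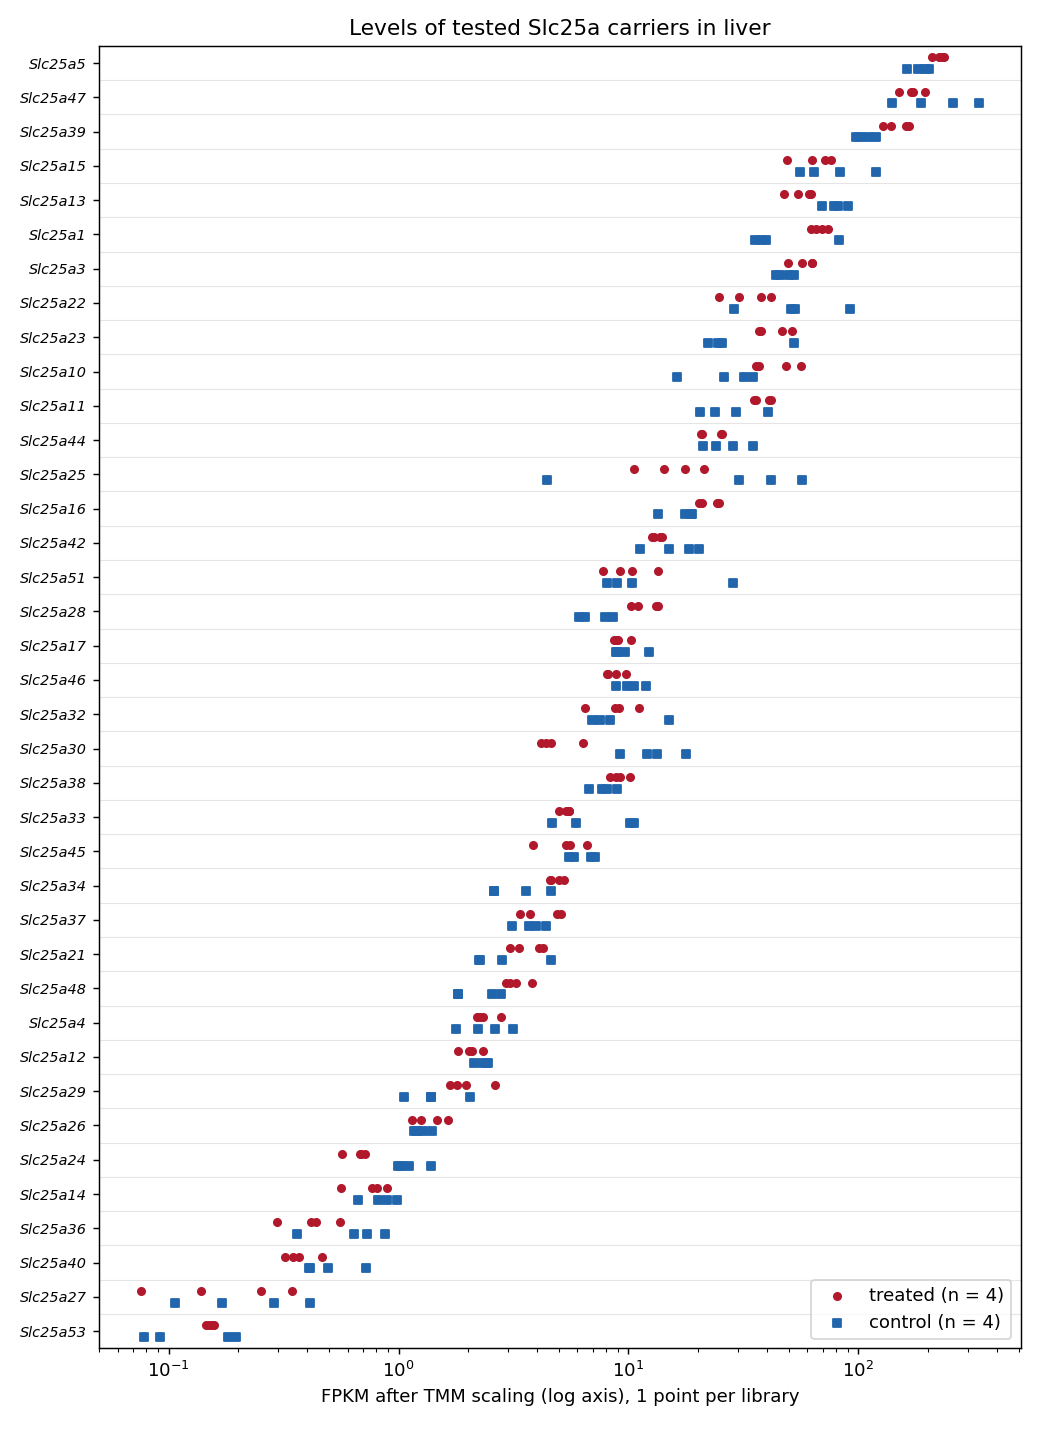
Levels of tested carriers in FPKM after TMM scaling on a log axis, 1 point per library, with treated libraries (circles) drawn above controls (squares) and carriers ordered by mean level. Levels span from Slc25a5 at 208.6 to 234.9 FPKM in treated and 163.1 to 203.7 FPKM in control libraries down to Slc25a53 below 0.2 FPKM in both.

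After treatment, 1 of the 39 tested carriers rose and 1 fell (edgeR quasi-likelihood test, Benjamini-Hochberg adjusted p under 0.05 over all 12861 tested genes). Slc25a28, which imports iron into mitochondria, rose, and Slc25a30, a relative of the uncoupling proteins, fell. The share of carriers called was 5.13%, against 9.21% of all tested genes. Among all genes 5.46% were called higher and 3.75% lower, so the carriers' share was not above the background in either direction. The groups did not overlap for 9 carriers (23.1%), against 18.9% of all tested genes. Treated values were all above control values for Slc25a5, Slc25a10, Slc25a16, Slc25a28, Slc25a39 and Slc25a48, and all below for Slc25a13, Slc25a24 and Slc25a30, where 10.2% and 8.7% of all genes did so. The log2 fold changes, treated minus control, were positive for 18 and negative for 21 carriers, with a median of -0.09 against -0.04 over all tested genes. They ran from -1.43 to 0.72. Before adjustment, 10 carriers (25.6%) had a p under 0.05 (edgeR), against 29.4% of all tested genes. Counts of unadjusted p-values by role, given below, are to be read beside that share.

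Without control 4 the same test called 15 carriers, 7 higher and 8 lower, against 18.1% of all tested genes, of which 9.47% higher and 8.61% lower. Control 4 was singled out from these values, and leaving out a control on the treated side of the others widens a difference by construction, so these calls are a description. Leaving out any other library gave 1 to 3 carriers. Those higher were Slc25a1, Slc25a10, Slc25a11, Slc25a21, Slc25a23, Slc25a28 and Slc25a48, and those lower were Slc25a13, Slc25a22, Slc25a24, Slc25a25, Slc25a30, Slc25a33, Slc25a36 and Slc25a42. Slc25a21, a carrier of oxodicarboxylates, and Slc25a42, a coenzyme A carrier, are named here after their values were seen. Slc25a21 had a log2 fold change of 0.31 (adjusted p = 0.418) with control 4 and 0.59 (adjusted p = 0.0382) without it, and Slc25a42 -0.28 (adjusted p = 0.301) and -0.42 (adjusted p = 0.047). Fold changes across all tested genes correlated with GC content (rank correlation 0.309) and with gene length (-0.241). Values with offsets for both are given for some carriers, and other values may also move. With the offsets and all 8 libraries only 1 carrier, Slc25a30, was called. Some fold changes moved towards 0, and others away from it, such as Slc25a22 (-0.87 against -0.74) and Slc25a33 (-0.74 against -0.55). Slc25a4 had -0.13, Slc25a17 -0.06, Slc25a21 0.47 and Slc25a29 0.11 with the offsets, none called. Also with the offsets, Slc25a32 turned to 0.11, and Slc25a34, Slc25a46 and Slc25a53 had 0.27, -0.03 and 0.37, none called.

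**Figure D2:**
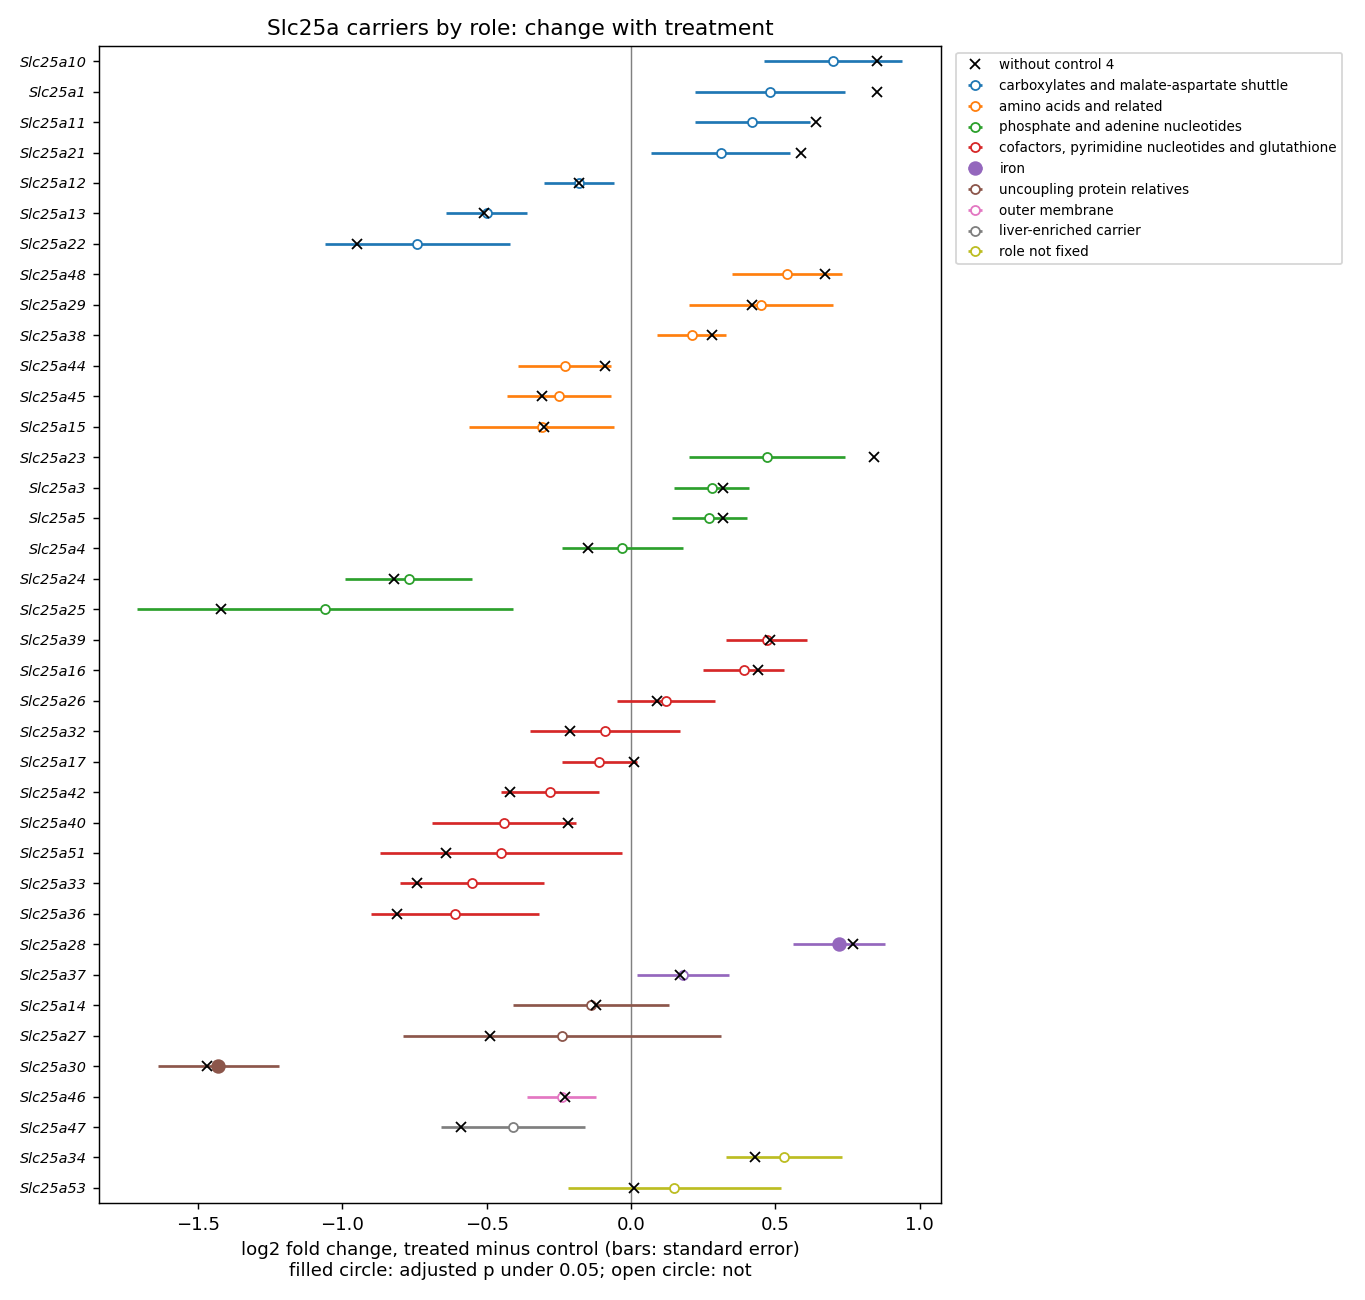
Log2 fold changes, treated minus control, of tested carriers grouped by role, with standard errors as bars, filled circles at an adjusted p under 0.05 and crosses for the value without control 4. Slc25a28 at 0.72 and Slc25a30 at -1.43 are the filled circles, and the crosses of Slc25a1 (0.85) and Slc25a23 (0.84) lie farther from 0 than their circles.

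Of the uncoupling protein relatives, Slc25a30 fell and Slc25a14 and Slc25a27 did not pass the test. Slc25a30, first described in kidney mitochondria, lies at 14:75760117-75787037 (minus strand, GRCm38), and its promoter window is the first of those printed. It stood at 4.15, 6.35, 4.60 and 4.37 FPKM in treated libraries 1 to 4, and at 9.23, 13.4, 17.7 and 12.03 FPKM in controls 1 to 4. Every treated liver lay below every control, and control 4 lay among the other controls. The log2 fold change was -1.43 (SE 0.21, adjusted p = 0.00769, edgeR), a level 0.372 times that of controls. It passed the test with each of the 8 libraries left out in turn (-1.47, adjusted p = 0.00613, without control 4), and with the length and GC offsets (-1.32, adjusted p = 0.016). Slc25a14 averaged 0.757 ± 0.138 FPKM in treated and 0.837 ± 0.135 FPKM in control livers, and Slc25a27 0.203 ± 0.119 and 0.244 ± 0.134 FPKM (SD, n = 4 each), so neither difference exceeded the spread.

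Bulk liver RNA mixes hepatocytes with other cells, and fewer cells of a type cannot be told apart from less RNA per cell. Summed levels of 5 macrophage markers were 64.9 to 136.4 FPKM in treated and 107.5 to 242.6 FPKM in control libraries, and 2 of the 5 were called lower. Those of 4 endothelial markers were 16.5 to 23.6 and 23.2 to 37.3 FPKM (2 of 4 lower), those of 4 stellate cell markers 34.8 to 47.8 and 47.5 to 59.0 FPKM (1 of 4 lower), and those of 4 T and NK cell markers 0.703 to 1.51 and 2.29 to 4.57 FPKM (2 of 2 tested lower). Their part in the lower level of Slc25a30 and in the other carriers' values was not tested. The adipocyte markers Plin1 and Cidea were at 0 in all libraries.

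Both mitoferrins, the carriers that bring iron into the matrix for heme and iron-sulfur clusters, had positive fold changes, and Slc25a28 (mitoferrin 2) rose. Slc25a28 lies at 19:43663801-43674881 (minus strand). It stood at 13.5, 13.1, 10.3 and 11.04 FPKM in treated libraries, and at 8.56, 6.07, 6.47 and 7.93 FPKM in controls. The groups did not overlap, and treated library 3 and control 1 lay nearest to each other. On the log2 scale it rose by 0.72 (SE 0.16, adjusted p = 0.0249, edgeR), a level 1.65 times that of controls. The call rested on 156 to 408 counts per library, held in only 2 of 8 fits with a library left out (adjusted p 0.018 to 0.0735), and was lost with the length and GC offsets (0.52, adjusted p = 0.0994). Without control 4 the log2 fold change of Slc25a28 was 0.77 (adjusted p = 0.018). Slc25a37 (mitoferrin 1), the form known for red cell precursors, averaged 4.27 ± 0.831 FPKM in treated and 3.78 ± 0.530 FPKM in control livers (log2 0.18, SE 0.16, adjusted p = 0.5, and 0.09 without control 1 or 0.10 without treated library 2). The summed level of the 5 erythroid genes, mostly hemoglobin, was 376.8 to 501 FPKM in treated and 138.8 to 479.2 FPKM in control libraries, and its part in the mitoferrin values was not tested.

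No carrier of carboxylates or of the malate-aspartate shuttle passed the test in all 8 libraries, with 4 positive and 3 negative fold changes among 7 tested. Unadjusted p-values were under 0.05 for 3 of them (edgeR), as for 29.4% of all tested genes. DESeq2 called 2 of them, Slc25a10 and Slc25a13. Slc25a13 (citrin, 6:6041218-6217173, minus strand), the liver's aspartate-glutamate carrier, came closest. It had 54.8, 47.4, 62.4 and 61.3 FPKM in treated libraries, and 81.5, 69.5, 90.1 and 78.1 FPKM in controls. The groups did not overlap, and the log2 fold change was -0.50 (SE 0.14, adjusted p = 0.0535). It was called without control 4 (-0.51, adjusted p = 0.0452) and by DESeq2 (adjusted p = 0.0102), a test that called 6 carriers and 15.9% of all genes. Slc25a12 (aralar), the form known for brain and muscle, averaged 2.07 ± 0.214 FPKM in treated and 2.34 ± 0.141 FPKM in control livers (-0.18, adjusted p = 0.361, and -0.07 with the length and GC offsets).

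The dicarboxylate carrier Slc25a10, which exchanges malate or succinate for phosphate, had 35.9, 37.0, 48.3 and 56.3 FPKM in treated livers and 26.0, 16.2, 31.9 and 34.9 FPKM in controls. These values did not overlap, yet the treated library 1 and control 4 lay about 1 FPKM apart. Its log2 fold change was 0.70 (SE 0.24, adjusted p = 0.095), with 0.85 (adjusted p = 0.0467) without control 4 and 0.38 (adjusted p = 0.367) with the length and GC offsets. Exons of Slc25a10 share 228 bp with Gm11788 on the opposite strand, whose reads cannot be told apart. The citrate carrier Slc25a1, which exports citrate for fatty acid synthesis, had 65.1, 69.8, 74.0 and 62.3 FPKM in treated livers and 39.6, 37.9, 35.4 and 82.1 FPKM in controls. Control 4 lay above all treated livers and the other controls below all of them. For Slc25a1 the log2 fold change was 0.48 (SE 0.26, adjusted p = 0.251) with control 4 and 0.85 (SE 0.12, adjusted p = 0.00376) without it. With the length and GC offsets it was 0.16 (adjusted p = 0.736).

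For the oxoglutarate-malate carrier Slc25a11, control 4 again lay with the treated livers. It stood at 35.1, 35.9, 41.8 and 40.8 FPKM in treated livers and 29.4, 20.5, 23.9 and 40.6 FPKM in controls, with a log2 fold change of 0.42 (adjusted p = 0.182) and, without control 4, 0.64 (adjusted p = 0.0186). With the offsets it was 0.25 (adjusted p = 0.417), and its exons share 189 bp with Rnf167 on the opposite strand. The glutamate carrier Slc25a22 lay the other way, with 30.2, 24.9, 37.9 and 41.6 FPKM in treated livers and 91.5, 50.9, 52.8 and 28.7 FPKM in controls. Its log2 fold change was -0.74 (SE 0.32, adjusted p = 0.163), with -0.95 (adjusted p = 0.0309) without control 4 and -0.39 (adjusted p = 0.324) without control 1. Controls 1 to 3 thus lay on the far side of all treated livers for both carriers, while control 4 lay within the treated range.

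None of the 6 tested amino acid carriers passed the test by edgeR or DESeq2, with 3 positive and 3 negative fold changes and 1 unadjusted p under 0.05 (Slc25a48, edgeR). Slc25a15, the ornithine-citrulline carrier of the urea cycle, was the most abundant of them. It had 63.0, 48.9, 71.5 and 76.3 FPKM in treated livers and 119.5, 55.6, 64.0 and 83.5 FPKM in controls (log2 -0.31, SE 0.25, adjusted p = 0.425). Without control 1, the highest, the value was -0.06 (adjusted p = 0.866), and without treated library 2, the lowest, -0.18 (adjusted p = 0.692). Slc25a44, a carrier of branched-chain amino acids, averaged 23.1 ± 2.72 FPKM in treated and 27.1 ± 5.95 FPKM in control livers (-0.23, adjusted p = 0.378, and -0.09 without control 4). Slc25a48, linked to choline import, had 2.95, 3.25, 3.79 and 3.06 FPKM in treated livers and 2.54, 1.81, 1.81 and 2.78 FPKM in controls. Its groups did not overlap, and its log2 fold change was 0.54 (SE 0.19, adjusted p = 0.094), or 0.67 (adjusted p = 0.0372) without control 4. The length and GC offsets gave 0.42 (adjusted p = 0.179) for Slc25a48. The other 3 had log2 fold changes of -0.25 to 0.45. For Slc25a47, whose values are given above, the log2 fold change was -0.41 (SE 0.25, adjusted p = 0.298), with -0.59 (adjusted p = 0.072) without control 4 and -0.18 (adjusted p = 0.652) without control 3. It was -0.64 (adjusted p = 0.162) with the length and GC offsets.

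Of 6 tested carriers of phosphate and adenine nucleotides, none was called by edgeR, 1 had an unadjusted p under 0.05, and DESeq2 called Slc25a24. Slc25a5 (above) had a log2 fold change of 0.27 (SE 0.13, adjusted p = 0.183), or 0.18 (adjusted p = 0.393) with the length and GC offsets, and no overlap between groups. The phosphate carrier Slc25a3, which supplies the ATP synthase, had 56.9, 49.4, 62.9 and 62.9 FPKM in treated livers and 49.9, 43.7, 45.5 and 52.3 FPKM in controls (0.28, SE 0.13, adjusted p = 0.2, and 0.44, adjusted p = 0.0937, with the offsets). Slc25a4, the muscle and heart form of the translocase, averaged 2.40 ± 0.276 FPKM in treated and 2.44 ± 0.579 FPKM in control livers (-0.03, adjusted p = 0.95), a sign that turns in other fits. Slc25a31, the testis form, had 0 counts in all treated libraries and 1 to 5 in controls, below the filter.

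The ATP-Mg/phosphate carriers, which shift adenine nucleotides into the matrix under control of calcium, are Slc25a23, Slc25a24 and Slc25a25. Slc25a25 (2:32414487-32451445, minus strand) had 10.6, 17.7, 21.4 and 14.3 FPKM in treated livers, and 56.6, 41.6, 30.2 and 4.43 FPKM in controls. Controls 1 to 3 lay above all treated livers and control 4 below them. The log2 fold change was -1.06 (SE 0.65, adjusted p = 0.315), with -1.42 (SE 0.27, adjusted p = 0.0116) without control 4 and -0.67 (adjusted p = 0.551) without control 1. Exons of Slc25a25 share 379 bp with Naif1 on the opposite strand.

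Slc25a23 was the mirror of Slc25a25 among the controls. It had 36.8, 51.5, 46.6 and 37.7 FPKM in treated livers, and 24.5, 22.2, 25.6 and 52.3 FPKM in controls. With control 4 at the top of all 8 libraries the log2 fold change was 0.47 (SE 0.27, adjusted p = 0.28), and without it 0.84 (SE 0.16, adjusted p = 0.00979). With the length and GC offsets Slc25a23 had 0.33 (adjusted p = 0.498). Slc25a24 (3:109123149-109168457, plus strand), the least abundant of the 3, had 0.684, 0.683, 0.566 and 0.713 FPKM in treated livers and 0.997, 1.38, 1.12 and 1.02 FPKM in controls. Its groups did not overlap, and control 4 lay with the other controls (log2 -0.77, SE 0.22, adjusted p = 0.0545, and -0.82, adjusted p = 0.0446, without control 4). The offsets gave -0.64 (adjusted p = 0.113) for Slc25a24. It rested on 32 to 92 counts per library.

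**Figure D3:**
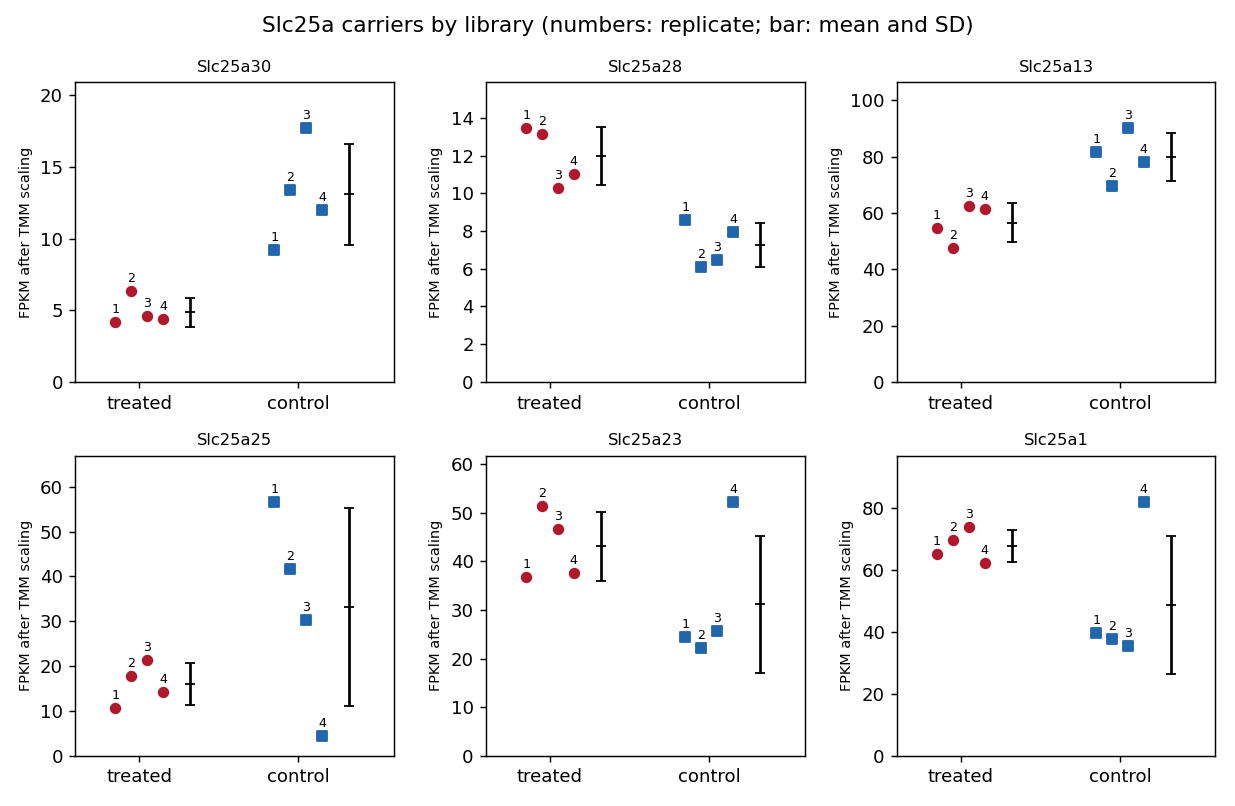
Levels of 6 carriers in FPKM after TMM scaling, with treated libraries (circles, left) and controls (squares, right) numbered by replicate and bars for mean and SD (n = 4 each). For Slc25a30, Slc25a28 and Slc25a13 all 4 treated points lie on 1 side of all controls, and for Slc25a25, Slc25a23 and Slc25a1 control 4 lies apart from controls 1 to 3.

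Carriers of cofactors, pyrimidine nucleotides and glutathione had 4 positive and 7 negative fold changes among 11 tested, none called by edgeR, 2 at an unadjusted p under 0.05 and 1, Slc25a39, called by DESeq2. Slc25a39 (11:102402985-102407946, minus strand), which brings glutathione into the matrix, had 139, 128, 166.6 and 160.5 FPKM in treated livers and 119.8, 97.6, 101.4 and 110.4 FPKM in controls. The groups did not overlap. The log2 fold change was 0.47 (SE 0.14, adjusted p = 0.0648), and 0.15 (adjusted p = 0.489) with the length and GC offsets. Its relative Slc25a40 averaged 0.376 ± 0.0614 FPKM in treated and 0.510 ± 0.149 FPKM in control livers (-0.44, adjusted p = 0.273), with -0.22 without control 4 and -0.16 with the offsets. Slc25a16, a relative of the yeast carrier Leu5 that is linked to mitochondrial coenzyme A, had 24.3, 20.3, 24.7 and 20.8 FPKM in treated livers and 18.8, 13.5, 17.7 and 18.9 FPKM in controls (0.39, SE 0.14, adjusted p = 0.102). These values did not overlap either.

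Both pyrimidine nucleotide carriers had negative fold changes. Slc25a33 had 5.53, 5.50, 5.34 and 4.97 FPKM in treated livers and 10.6, 10.1, 5.92 and 4.64 FPKM in controls (-0.55, SE 0.25, adjusted p = 0.176, and -0.74, adjusted p = 0.034, without control 4). Slc25a36 averaged 0.427 ± 0.106 FPKM in treated and 0.652 ± 0.218 FPKM in control livers (-0.61, SE 0.29, adjusted p = 0.198, with -0.81, adjusted p = 0.0446, without control 4 and -0.35, adjusted p = 0.46, with the offsets). The treated libraries of Slc25a33 lay within 1 FPKM of each other, while its controls formed a high and a low pair. Exons of Slc25a33 share 281 bp, or 14.9% of their length, with Gm13068 on the opposite strand. Of the rest, Slc25a17 of peroxisomes, the folate and FAD carrier Slc25a32, the NAD carrier Slc25a51, Slc25a26 and Slc25a42 had log2 fold changes of -0.45 to 0.12. The -0.45 was that of Slc25a51, which stood at 7.78 to 13.4 FPKM in treated livers, at 28.4 FPKM in control 1 and at 8.09 to 10.3 FPKM in the other controls. Without 1 library it ran from -0.64 to 0.16, and that of Slc25a32 from -0.21 to 0.22, so both turned sign. Slc25a46 of the outer membrane had -0.24 (adjusted p = 0.223), and the carriers of no settled substrate, Slc25a34 and Slc25a53, had 0.53 and 0.15 (adjusted p = 0.113 and 0.818).

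Some carriers take the same or like substrates, and the share of each in the summed FPKM of 8 pairs was compared between groups by an exact two-sided permutation test over 70 assignments, whose smallest p is 0.0286. No pair passed after adjustment over the 8 pairs. Shares did not overlap for 3 pairs, each at an exact p = 0.0286 and adjusted p = 0.0762. Slc25a12 made up 4.10%, 3.70%, 3.14% and 3.28% of the aspartate-glutamate carriers in treated livers, and 2.89%, 2.98%, 2.64% and 2.90% in controls. Slc25a13 thus made up most of this pair in every liver. Slc25a40 made up 0.217% to 0.277% of the glutathione carriers in treated and 0.339% to 0.652% in control livers. The shares carry no length or GC offsets. With offsets the log2 fold changes of Slc25a40 and Slc25a39 were -0.16 and 0.15, against -0.44 and 0.47 without. Slc25a24 made up 1.20% to 1.86% of its sum with Slc25a23 in treated and 1.92% to 5.87% in control livers.

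The share of Slc25a25 in its sum with Slc25a23 showed the widest range. It was 22.4%, 25.6%, 31.5% and 27.4% in treated livers and 69.8%, 65.2%, 54.1% and 7.81% in controls, a difference of -22.5 percentage points (exact p = 0.143, adjusted p = 0.229). Slc25a25 was the larger of the pair in controls 1 to 3 only, and control 4 had the lowest share of all 8 libraries. Slc25a37 made up 23.5% to 27.9% of the mitoferrins in treated and 26.6% to 41.8% in control livers (exact p = 0.114, adjusted p = 0.229). The shares of Slc25a4 with Slc25a5, Slc25a10 with Slc25a11 and Slc25a33 with Slc25a36 overlapped between groups, at adjusted p of 0.229 to 0.8.

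**Figure D4:**
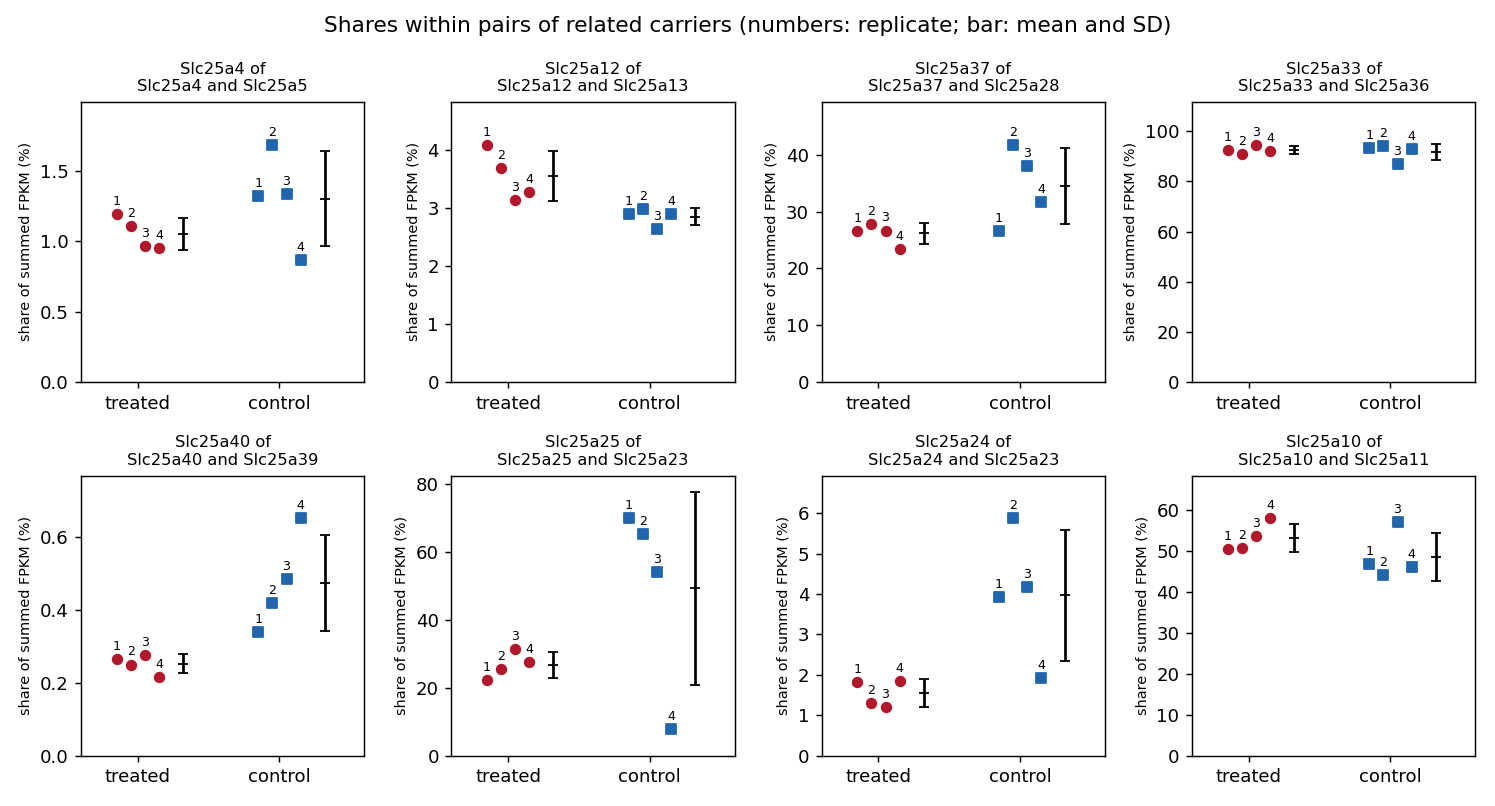
Share of the first carrier in the summed FPKM of each of 8 pairs (%), with treated libraries (circles, left) and controls (squares, right) numbered by replicate and bars for mean and SD (n = 4 each). The groups lie apart for Slc25a12, Slc25a40 and Slc25a24, and for Slc25a25 control 4 at 7.81% lies far below controls 1 to 3.

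Of 30 other transporters of the mitochondrial membranes, 28 were in the table and 24 were tested. Of these, 2 rose and 1 fell (12.5%, beside 9.21% of all genes). The subunits of the pyruvate carrier, which work as a heterodimer, moved in opposite directions. Mpc1 had 3.86, 3.43, 4.46 and 4.56 FPKM in treated livers and 6.29, 5.63, 6.87 and 6.30 FPKM in controls (log2 -0.62, SE 0.15, adjusted p = 0.0307, edgeR). Mpc2 had 38.8, 34.2, 47.8 and 36.3 FPKM in treated livers and 30.0, 22.4, 21.7 and 27.1 FPKM in controls (0.63, SE 0.16, adjusted p = 0.039, edgeR). Neither gene overlapped between groups, and both calls held with the length and GC offsets but in only 2 of 8 fits with a library left out. The pseudogene Mpc1-ps had 16 to 43 counts in treated and 14 to 28 in control libraries, and how reads were split between it and Mpc1 is not given.

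Tspo, the translocator protein of the outer membrane, had 67.9, 63.7, 80.1 and 68.6 FPKM in treated livers and 44.3, 49.2, 32.4 and 27.8 FPKM in controls. On the log2 scale it rose by 0.87 (SE 0.18, adjusted p = 0.0219, edgeR), and 0.38 (adjusted p = 0.272) with the length and GC offsets. The most abundant of the list did not pass the test. Cpt1a and Cpt2, which pass fatty acids into mitochondria as carnitine esters, averaged 111.6 ± 36.4 and 76.7 ± 12.7 FPKM in treated and 132.6 ± 35.7 and 96.8 ± 17.2 FPKM in control livers. The outer membrane channel Vdac1 averaged 78.2 ± 3.97 FPKM in treated and 59.5 ± 11.6 FPKM in control livers (0.39, SE 0.15, adjusted p = 0.118).

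**Figure D5:**
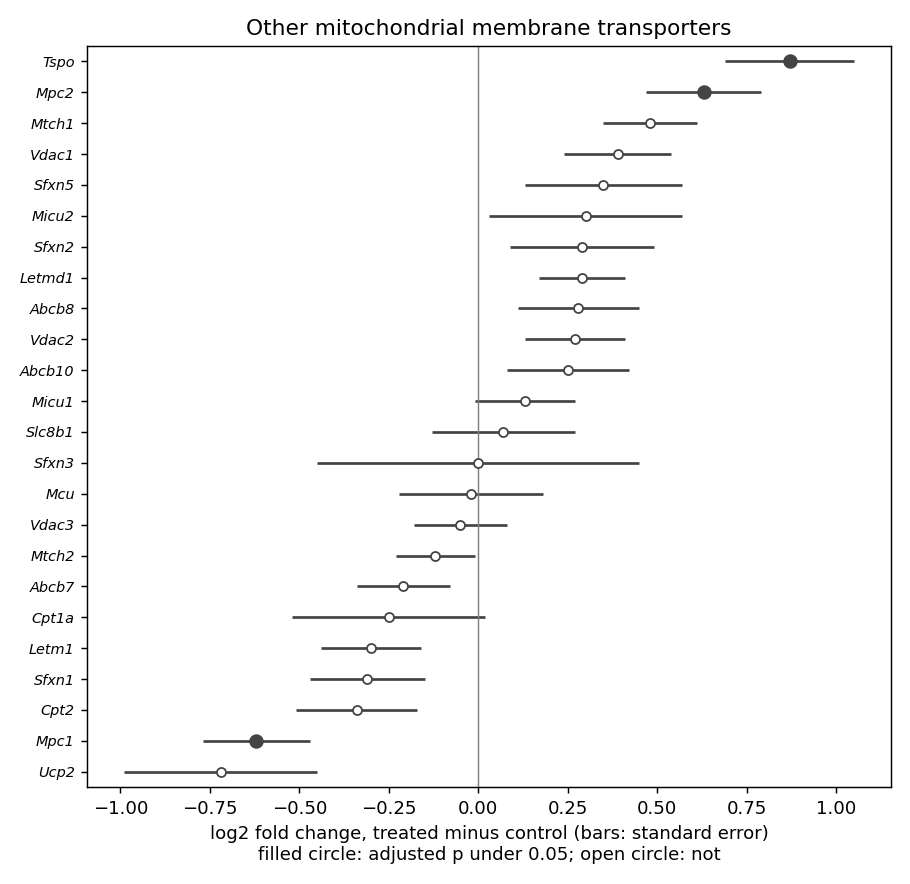
Log2 fold changes, treated minus control, of 24 other mitochondrial transporters with standard errors as bars and filled circles at an adjusted p under 0.05. Tspo (0.87) and Mpc2 (0.63) are the filled circles to the right of 0 and Mpc1 (-0.62) the filled circle to its left.

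The carriers lay on 19 chromosomes, with the most on chromosome 11, which held 5. In 3 cases annotated carriers were neighbours. Slc25a29, a carrier of basic amino acids, and Slc25a47 lie 162 bp apart on opposite strands of chromosome 12 in the GENCODE annotation, while the RefSeq window printed for Slc25a47 lies within that gene. Their log2 fold changes were 0.45 for Slc25a29 and -0.41 for Slc25a47, neither called. Slc25a5 and Slc25a23 each lie beside a carrier that was not tested, Slc25a43 at 18448 bp on chromosome X and Slc25a41 at 2056 bp on chromosome 17. Besides the overlaps given above, exons of Slc25a18, Slc25a21, Slc25a23, Slc25a26, Slc25a37 and Slc25a46 share 32 to 383 bp with a gene on the opposite strand, at most 7.1% of their length. Those of Slc25a35, which was not tested, share 1151 bp with Rangrf. The pseudogene Slc25a5-ps held 0 to 3 counts in treated and 0 to 1 in control libraries.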

How the data were processed

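RNA of treated and control mouse livers was extracted with Trizol, selected on poly-T beads and made into libraries with a kit that does not mark strand, per the labels' protocols. Each group held 4 libraries. The deposited table holds raw counts per gene from the authors, and FPKM values beside them. The gene length implied by counts, library totals and FPKM agreed between libraries within 1%. This held in 100% of the genes where it could be computed in more than 1 library. HISAT2, HTSeq 0.13.5, DESeq2 1.32.0 and GRCm38 are named in the submitters' processing notes with no role stated, and sources used here give neither the annotation release nor the strand setting. Reads of overlapping or near-identical genes could therefore be split.

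All 24547 genes entered edgeR 4.0.16 under R 4.3.3 (filterByExpr with a minimum count of 10 and minimum total of 15, TMM, robust quasi-likelihood F test on group alone). The call threshold was a p of 0.05 after Benjamini-Hochberg adjustment over 12861 tested genes, and every adjusted p of a gene comes from this test unless another is named. The standard error is the log2 fold change divided by the root of the F statistic. TMM factors of 0.937 to 1.11 also scaled the FPKM, and the depth of 15864399 to 20159132 counts limits carriers under about 100 counts. The steps were tested on simulated counts. No pair of libraries was near-identical (smallest chi-square per degree of freedom 31.6). Positions, GC content and overlaps came from GENCODE on GRCm38 (24540 identifiers matched).

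Members and lists were chosen with earlier results of these data known. By rule, carriers are named where called, where groups did not overlap, among the 12 most abundant, or in a pair of related carriers. From other lists the called genes and up to 4 most abundant are named. Other tested carriers given with values, such as Slc25a14, Slc25a17, Slc25a21, Slc25a27, Slc25a29, Slc25a32, Slc25a34, Slc25a42, Slc25a46, Slc25a51 and Slc25a53, fall outside this rule. Values of 1 tested carrier, which is part of the counts, are not reported here. Alternatives were other scalings and filters, DESeq2 1.42.0, limma 3.58.1 on log2(FPKM + 1) or log2(FPKM + 0.1), a replicate block, smooth offsets for gene length and GC content (mgcv), other thresholds and leaving out libraries.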

Additional observations from a re-analysis of the deposited data

Results flagged for a closer look

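In 2 of 64 groups of 4 libraries examined, 1 library lay far from the other 3, where chance gives about 1 group in 20. The number of such groups was thus not above that rate. All groups draw on the same 8 libraries, so they are not independent. Both cases were control 4. For Slc25a1, the citrate carrier, control 4 stood at 82.06 FPKM, and its gap to the nearest control made up 0.909 of the range of the controls. For Slc25a23, an ATP-Mg/phosphate carrier, control 4 stood at 52.28 FPKM, with a gap of 0.886 of that range.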

How the results depend on the processing

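Of the 39 tested carriers, 2 were called, and other settings gave 4 with a stricter low-count filter, 6 with DESeq2, 4 with limma on log2(FPKM + 1) or log2(FPKM + 0.1), 1 with length and GC offsets, 1 with those offsets and a replicate block, 6 without controls 2 and 4 together, 1 at an adjusted p under 0.01 and 7 under 0.1. Leaving out 1 library gave 1 to 15, with 15 without control 4. For the other transporters, 3 were called, against 0 with the offsets and block, 0 at 0.01 (edgeR, with 7 at an unadjusted p under 0.05 in the fit reported) and 0 to 7 with a library left out (7 without control 4). The 7 at an unadjusted p under 0.05 were 29.2% of those tested (edgeR), beside 29.4% of all tested genes. Over all genes, 1184 were called, against 2160 by DESeq2, 480 by limma with no filter, 545 with the offsets, 261 with offsets and block, 145 at 0.01 and 2272 at 0.1. Leaving out 1 library gave 187 (without treated library 3) to 2325 (without control 4). The cause was not tested, other than that a moved threshold changes a count by construction. Slc25a4 turned sign, at 0.00 without the low-count filter and -0.15 to 0.13 with a library left out, as did Slc25a17 (-0.17 to 0.01), Slc25a27 (-0.61 to 0.13), Slc25a32 (-0.21 to 0.22), Slc25a51 (-0.64 to 0.16) and Slc25a53 (-0.03 to 0.38), none called. The share of Slc25a33 turned too, with -0.834 to 1.48 percentage points. Among alternative values of the carriers named by rule, 481 kept direction and side of the threshold, 29 moved past it and 10 fell short of it. Residuals of same-numbered treated and control libraries correlated at 0.177, 0.0589, -0.0124 and 0.0697, and those of differently numbered ones at -0.207 to 0.176. With so few libraries these values cannot settle whether equal replicate numbers pair libraries. The replicate block alone called 3 carriers and 944 genes, and gave -0.67 for Slc25a25, where limma gave -0.66. Carriers under about 100 counts, such as Slc25a24 and Slc25a27, are limited by depth.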
